A study of Arabidopsis thaliana with 12 samples.

Results

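The wild-type baseline of an Arabidopsis thaliana m6A study was the transcriptome of the aerial part of 3-week-old Col-0 plants. Col-0 is the reference accession of the species, and these plants carried no mutation or treatment in the labels. The series held 12 samples in 4 groups of 3, with both m6A immunoprecipitation and RNA-seq for a mettl16 mutant and for Col-0. The 3 RNA-seq libraries of Col-0 were chosen by their labels, and the mutant's expression values were not used here. The growth regime was a greenhouse at 23 ± 2 °C, lit for 16 h and dark for 8 h of each day. The libraries were the untreated input portions of polyadenylated RNA cut to about 100 nt, so they carried no enrichment for m6A. The series describes the samples as biological replicates without saying how many plants each held, and the hour of harvest was not given in the sources used here.

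A rosette leaf is mostly photosynthetic mesophyll, in which nuclear genes supply the small subunit of Rubisco, the chlorophyll-binding antenna proteins and most of the small photosystem subunits. The large subunit of Rubisco and the reaction-centre proteins are encoded in the plastid genome, whose transcripts mostly lack long poly(A) tails and are poorly captured by selection on poly(A). Epidermis, guard cells, trichomes, veins and the shoot apex add smaller populations, each with its own regulators and products. Clock-controlled genes in leaves cycle over the day, so a single harvest shows one phase of them.

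The expression table listed 25566 genes in FPKM, the fragments of a gene scaled by transcript length and by library size, a level already divided by transcript length so that genes can be set side by side. FPKM summed to 717728, 714685 and 718824 in replicates 1, 2 and 3. Sequencing depth is not kept in this unit; the ratio of the lowest values gave replicates 1 and 2 a depth of about 0.64 and 0.927 of replicate 3. Replicate 1 listed 3120 genes at 0, against 2622 in replicate 2 and 2590 in replicate 3. Across all genes the libraries correlated in pairs with Pearson's r of 0.996 to 0.997 on log2(FPKM + 1) and Spearman's rho of 0.992 to 0.993, a description over genes that share a sample and are not replicates. There was a single group, so no difference was tested and no p-value is given.

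A small set of photosynthetic genes held much of the transcript pool. The 10 highest genes together made up 12.6 ± 0.032% of summed FPKM (SD, n = 3), the 100 highest 35.2 ± 0.196% and the 1000 highest 62.1 ± 0.126%. Ranked by mean level, 404 genes held 50% of the pool and 6773 genes held 90%. A total of 24 of the 25 highest genes belonged to the lists for antenna proteins, photosystem and electron transport subunits, Rubisco and the Calvin cycle, or carbonic anhydrase; the exception, PSBTN, was annotated as subunit T of photosystem II. These lists, with 79 genes, summed to 28.9%, 28.8% and 29.2% of FPKM in the 3 libraries.

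**Figure D1:**
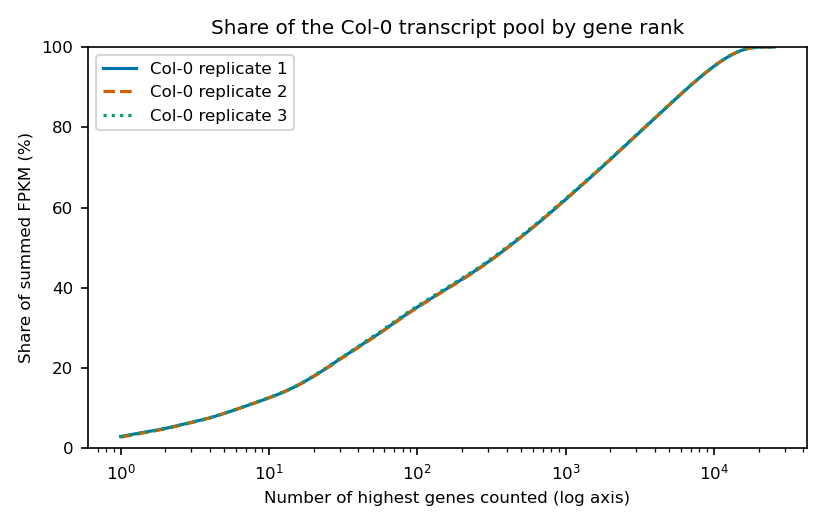
Share of summed FPKM, in percent, held by the highest genes of each Col-0 library, against the number of genes counted on a log axis. The lines of the 3 replicates lie on each other, near 12.6% at 10 genes, 35.2% at 100 genes and 62.1% at 1000 genes.

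By mean level over the 3 libraries, 17868 genes (69.9%) reached 1 FPKM. At the low end, 1542 genes were listed at 0 in every library and 6156 lay above 0 but under 1 FPKM. The middle of the distribution held 8754 genes from 1 to under 10 FPKM and 8099 genes from 10 to under 100 FPKM, and the median over all genes was 5.09 FPKM. A further 935 genes lay from 100 to under 1000 FPKM and held 29.4% of the pool. The 80 genes at 1000 FPKM or more held 32.8%, slightly more than the 31.8% of the 8099 genes in the 10 to under 100 class. An exact 0 can be a failed estimate, which was not tested here, so such genes are described as listed at 0.

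RBCS1A (AT1G67090; chromosome 1, 25048158 to 25049424, minus strand, build TAIR10), a small subunit of Rubisco, the enzyme that fixes carbon dioxide, was the highest gene with 21294, 19999 and 20971 FPKM in replicates 1, 2 and 3. LHCB1.3 (AT1G29930; chromosome 1, 10478005 to 10479048, plus strand), an antenna protein of photosystem II, followed with 14350, 14767 and 14404 FPKM. RBCS3B (AT5G38410; chromosome 5, 15377173 to 15378416, minus strand), another Rubisco small subunit, had 10979, 11023 and 11118 FPKM. These 3 genes kept the same order in every library and their ranges did not overlap. PSBR (AT1G79040; chromosome 1, 29736016 to 29737009, plus strand), a subunit of photosystem II, averaged 8184 ± 269 FPKM and RBCS2B averaged 8081 ± 177 FPKM (SD, n = 3 each). The range of RBCS2B, 7883 to 8225 FPKM, overlapped that of PSBR, 8024 to 8495 FPKM, so the order of that pair was within the spread. RCA, the activase that clears inhibitors from Rubisco, averaged 6440 ± 124 FPKM. The coefficient of variation (CV, the SD as a percent of the mean) of the 25 highest genes lay between 0.643% and 7.48%.

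All 20 antenna genes were above 10 FPKM and 18 were above 100 FPKM, with a list median of 3016 FPKM against the median of 5.09 FPKM over all genes. The lowest were LHCB4.3 at 82.1 FPKM, LHCA6 at 94.0 FPKM and LHCA5 at 112 FPKM, while LHCB1.4 at 1162 FPKM was the next above them. The 31 genes for nuclear photosystem and electron transport subunits had a median of 1979 FPKM and a lowest member of 236 FPKM. That lowest member was PETE1, a plastocyanin, the copper protein that carries electrons to photosystem I; its paralogue PETE2 averaged 3489 FPKM. The 22 genes of Rubisco and the Calvin cycle had a median of 983 FPKM. In this list the transketolase TKL1 averaged 541 FPKM and its paralogue TKL2 8.21 FPKM, and the plastid aldolases FBA2, FBA1 and FBA3 averaged 3795, 1154 and 90.2 FPKM. Each of the 3 lists held a share of the pool close to the others, 9.49 ± 0.0744% for antenna, 9.60 ± 0.0925% for photosystem and electron transport and 9.15 ± 0.0425% for Rubisco and the Calvin cycle (SD, n = 3 each).

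Photorespiration, which recycles the product of Rubisco's reaction with oxygen, had 15 listed genes with a median of 598 FPKM. SHM1, a mitochondrial serine hydroxymethyltransferase, was the highest with 1464, 1565 and 1536 FPKM, and mtLPD2, a dihydrolipoyl dehydrogenase, the lowest with 40.1, 40.2 and 39.4 FPKM. In chlorophyll synthesis, CRD1, a subunit of the cyclase step, averaged 1319 ± 28.9 FPKM and CHLH, the large subunit of magnesium chelatase, averaged 832 ± 0.766 FPKM (SD, n = 3 each). CHLI1, the major chelatase I subunit, averaged 431 FPKM and its paralogue CHLI2 55.4 FPKM. Starch and sucrose genes were lower, with a median of 54.4 FPKM over 16 genes. ADG1, the small subunit of ADP-glucose pyrophosphorylase, had 247 FPKM, and SUS3, a sucrose synthase, had 0.850 FPKM.

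**Figure D2:**
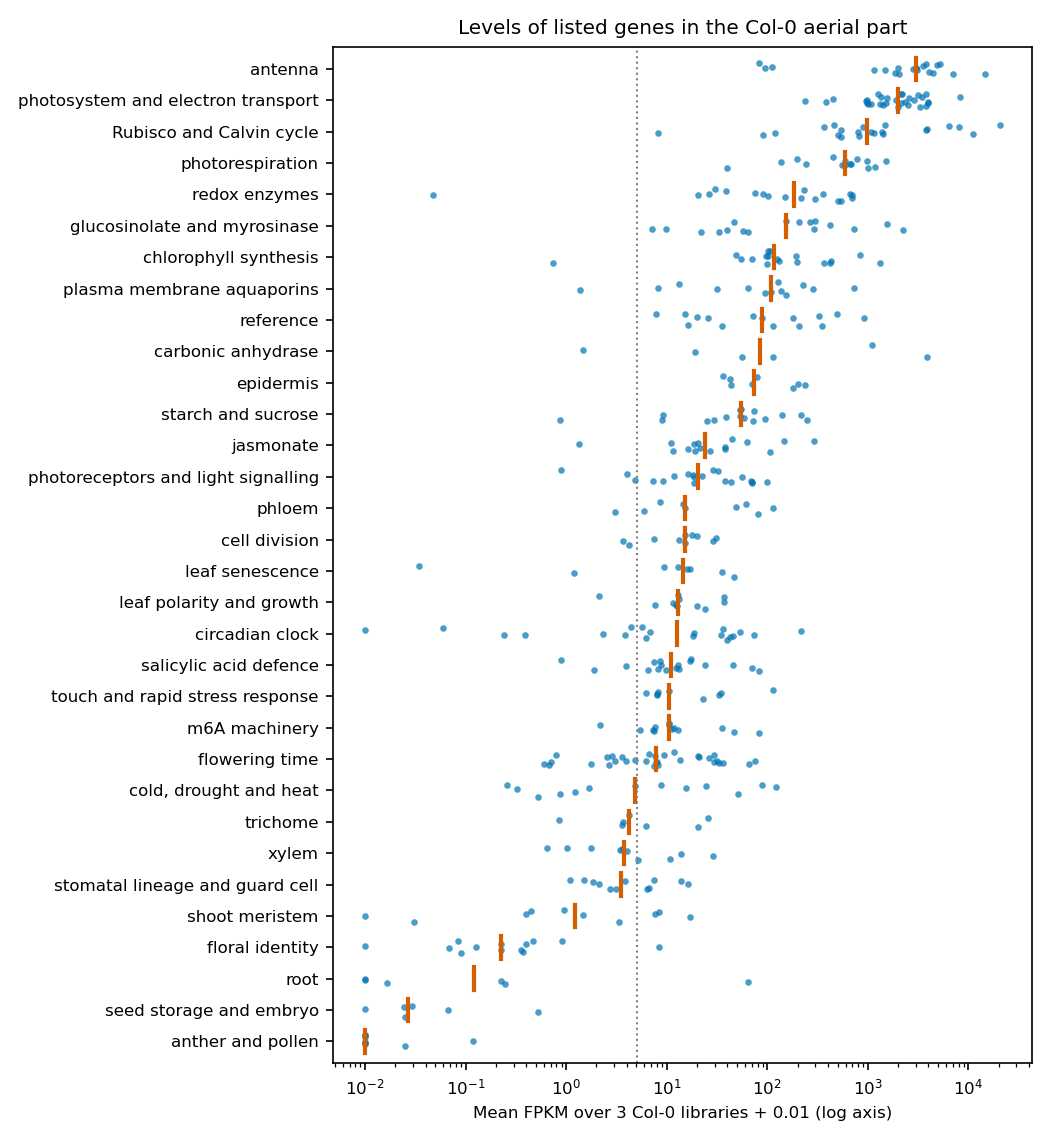
Mean FPKM over the 3 Col-0 libraries for each gene of 32 lists, with 0.01 added and a log axis; each point is a gene, the vertical bar is the list's median and the dotted line is the median of all genes, 5.09 FPKM. The 4 highest medians are those of antenna, photosystem and electron transport, Rubisco and Calvin cycle, and photorespiration, from 3016 to 598 FPKM, carbonic anhydrase lies at 84.9 FPKM, and lists of floral, root, seed and anther genes lie under the dotted line.

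Of the 80 genes at 1000 FPKM or more, 55 were in the photosynthesis lists. The others included PSBTN of photosystem II, CRD1 of chlorophyll synthesis, and SHM1 and AGT1 of photorespiration. Products of defence, detoxification and other metabolism were also among them. TGG1 and TGG2, the myrosinases that break down glucosinolates when tissue is damaged, had 2242, 2269 and 2238 FPKM and 1531, 1586 and 1524 FPKM in replicates 1, 2 and 3. The range of TGG1 lay above that of TGG2. ECS1, listed under that name alone, averaged 2152 ± 27.6 FPKM, and MT3, a metal-binding metallothionein, averaged 1786 ± 122 FPKM (SD, n = 3 each). THI1, which makes the thiazole part of thiamin, averaged 1415 ± 15.03 FPKM, and NIT1, a nitrilase, averaged 1140 ± 20.5 FPKM. GSTU20, a glutathione transferase, averaged 1074 ± 17.0 FPKM. These 7 genes stand among the 80 highest, and all but TGG1 and TGG2 were named after their values were seen.

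A list of 17 genes covered the synthesis, regulation and breakdown of glucosinolates, the sulphur-rich defence compounds of the cabbage family. All 17 were at 7.21 FPKM or more, 9 were at 100 FPKM or more, and their median was 152 FPKM, against 5.09 FPKM over all genes. CYP79F1, which starts the aliphatic branch, averaged 292 ± 5.61 FPKM, against 9.93 ± 0.215 FPKM for its neighbour and close paralogue CYP79F2 (SD, n = 3 each). Of the MYB regulators, MYB29 and MYB28 of the aliphatic branch averaged 64.4 and 33.0 FPKM, and MYB34 and MYB51 of the indole branch 21.9 and 7.21 FPKM. The list held 0.899 ± 0.0145% of the pool (SD, n = 3), and the myrosinases TGG1 and TGG2 averaged 2249 and 1547 FPKM of its summed 6448 FPKM.

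Several gene families were led by 1 member. RBCS1A held 47.4 ± 0.979% of the summed FPKM of the 4 Rubisco small-subunit genes, RBCS3B 25.2 ± 0.325%, RBCS2B 18.5 ± 0.505% and RBCS1B 8.86 ± 0.240% (SD, n = 3 each). LHCB1.3 held 44.9 ± 0.933% of the LHCB1 sum and LHCB1.4 the least, 3.60 ± 0.115%. Copies of RBCS and LHCB1 are near-identical in sequence, so the division of fragments between them by the authors' counting is uncertain. CA1, the main plastid carbonic anhydrase, held 75.4 ± 0.620% of the 6 β-type carbonic anhydrases, and CA3 held 0.0281 ± 0.00549%. PIP2;1, a water channel of the plasma membrane, held 36.7 ± 0.467% over 13 such aquaporins, and PIP2;4 was the lowest with 0.0683 ± 0.00842%.

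Other families were shared between members. LHCB2.2 had 3032, 3022 and 3031 FPKM and LHCB2.1 had 3028, 2980 and 3003 FPKM, with overlapping ranges. As for LHCB1, the division of fragments between these related copies is uncertain. The catalases CAT3 and CAT2, which remove hydrogen peroxide, held 49.9 ± 0.492% and 48.6 ± 0.484% of their family (SD, n = 3 each), again with overlapping ranges of FPKM, and CAT1 held 1.48%. Among the red-light receptors, PHYB had 19.1, 18.8 and 18.5 FPKM and PHYA had 18.2, 18.0 and 18.7 FPKM, while PHYE, PHYC and PHYD followed at 11.8, 9.19 and 4.01 FPKM without overlap. Protochlorophyllide reductase was divided between PORC with 60.1 ± 0.338% and PORB with 39.7 ± 0.326%. PORA, the form known from dark-grown seedlings, had 0.850, 0.681 and 0.642 FPKM.

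The 20 clock genes covered a wide range of levels, with 10 at 10 FPKM or more and 4 under 1 FPKM. CCA1 and LHY, MYB factors whose transcripts peak around dawn, had 71.5, 73.2 and 74.2 FPKM and 40.7, 39.0 and 46.7 FPKM. LNK2, a transcriptional coactivator that works with the REVEILLE factors, was the highest clock gene with 216, 224 and 215 FPKM, and LNK1 averaged 53.9 ± 0.393 FPKM (SD, n = 3). RVE8, RVE4 and RVE6, activators of the REVEILLE family, averaged 36.3, 34.4 and 5.66 FPKM, and CHE, a TCP factor that binds the CCA1 promoter, 40.1 FPKM. The pseudo-response regulators, repressors that act one after another through the day, were ordered PRR7 at 45.4 ± 0.738 FPKM, PRR9 at 18.5 ± 0.636 FPKM, TOC1 at 6.27 ± 0.121 FPKM, PRR5 at 0.231 ± 0.0628 FPKM and PRR3 at 0.0493 ± 0.0315 FPKM (SD, n = 3 each).

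Several members known for later peaks were under 5 FPKM. GI, which stabilises the blue-light receptor ZTL, averaged 4.42 ± 0.0753 FPKM. The evening complex had ELF3 at 3.84 FPKM, LUX at 2.31 FPKM and ELF4 at 0.382 FPKM. FKF1, the relative of ZTL that removes the CDF repressors in long-day afternoons, was listed at 0 in all 3 libraries, while ZTL averaged 18.3 ± 0.855 FPKM and LKP2 6.77 ± 0.207 FPKM (SD, n = 3 each). The relation of these levels to the hour of harvest was not tested.

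**Figure D3:**
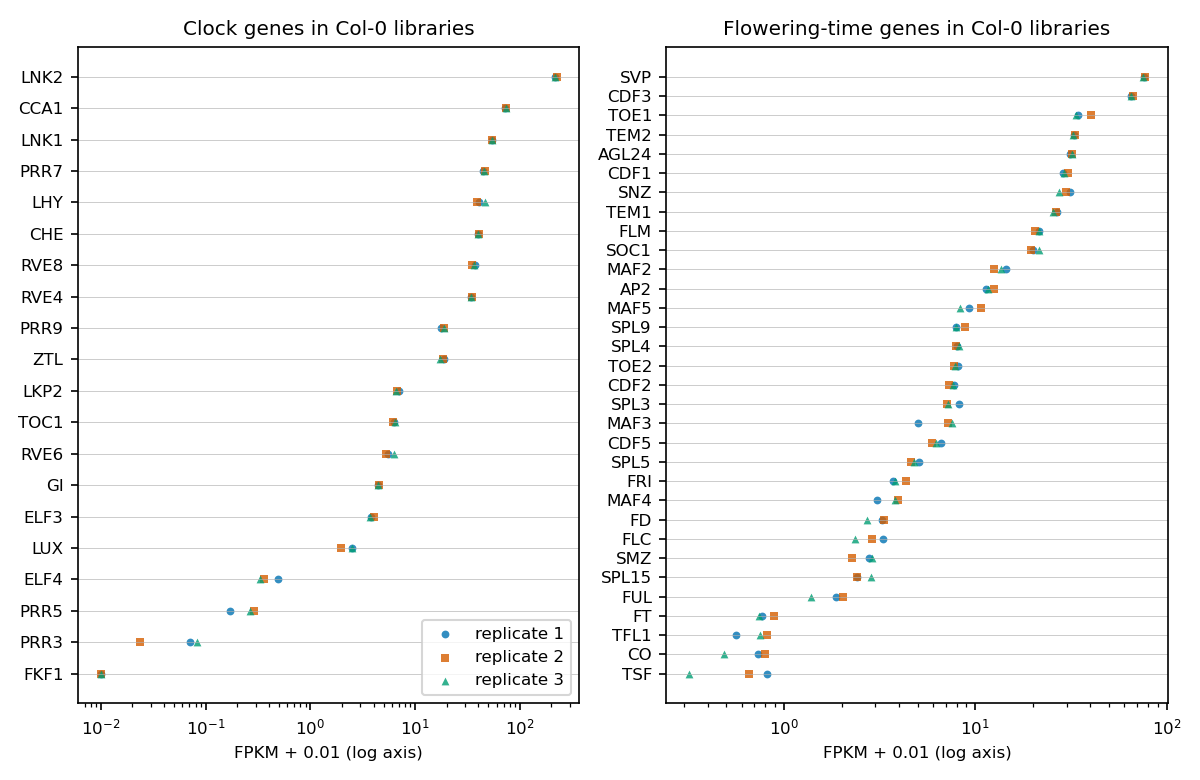
FPKM of each clock gene (left) and flowering-time gene (right) in each Col-0 library, with 0.01 added and a log axis; circles, squares and triangles are replicates 1, 2 and 3. Clock genes run from LNK2 at 218 FPKM to FKF1 listed at 0, and flowering-time genes run from SVP at 76.3 FPKM to TSF at 0.588 FPKM.

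The 32 flowering-time genes lay between 0.588 and 76.3 FPKM, with repressors and activators at both high and low levels. SVP, a MADS-box repressor of flowering, was the highest with 76.3, 77.1 and 75.5 FPKM. The AP2-like and RAV-type repressors TOE1, TEM2, SNZ and TEM1 averaged 36.1, 32.8, 29.5 and 26.2 FPKM, and SMZ 2.63 FPKM. AP2 and TOE2 of the same family averaged 11.9 and 7.88 FPKM. CDF3 and CDF1, DOF factors of which CDF1 represses CO, averaged 65.9 and 29.5 FPKM, and CDF2 and CDF5 7.57 and 6.25 FPKM. FLC, the repressor silenced by winter cold, averaged 2.84 ± 0.474 FPKM (SD, n = 3). Its relatives FLM, MAF2, MAF5, MAF3 and MAF4 averaged 21.1, 13.5, 9.43, 6.60 and 3.60 FPKM. FRI, the activator of FLC that is not functional in Col-0, was measured at 3.93 FPKM.

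On the promoting side, AGL24 and SOC1, MADS-box activators, averaged 31.7 ± 0.456 and 20.4 ± 0.965 FPKM (SD, n = 3 each). CO, the long-day activator of FT, had 0.718, 0.788 and 0.478 FPKM, and FT, the mobile signal itself, had 0.757, 0.876 and 0.734 FPKM. TSF, the close relative of FT, had 0.807, 0.647 and 0.310 FPKM, and TFL1, which opposes FT in the apex, averaged 0.697 FPKM. The ranges of these 4 genes overlapped, so no order among them exceeds the spread. FD, the bZIP partner of FT, averaged 3.08 FPKM, and FUL, a MADS-box gene of the induced meristem, 1.75 FPKM. The age-pathway factors SPL9, SPL4, SPL3, SPL5 and SPL15 averaged 8.24, 8.08, 7.50, 4.82 and 2.55 FPKM.

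Genes of floral organs were at or near 0. Of 13 floral identity genes, SEP4, a SEPALLATA gene, reached 1 FPKM, with 8.44, 8.04 and 8.66 FPKM. LFY and AP1, which specify the floral meristem, averaged 0.387 and 0.345 FPKM, and AG, which specifies stamens and carpels, 0.453 FPKM. AP3 and PI, the petal and stamen genes, averaged 0.212 and 0.365 FPKM, SEP1, SEP3 and SEP2 0.908, 0.216 and 0.0748 FPKM, SHP1 and SHP2 0.115 and 0.0810 FPKM, and CAL 0.0589 FPKM. STK was listed at 0 in every library. Of 8 anther and pollen genes with a row, 6 were listed at 0 in all libraries, and the others, AMS and TDF1, averaged 0.108 and 0.0147 FPKM.

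The labelled tissue, the aerial part, could be set against markers of cell types. RNA came from whole tissue, so fewer cells of a type and less RNA per cell cannot be told apart in any of these values. All 8 epidermis markers were above 10 FPKM, from ATML1 at 36.4 FPKM to PDF1 at 240 ± 13.0 FPKM (SD, n = 3); both are known from the outermost cell layer of the shoot. All 9 phloem markers were above 1 FPKM. PP2-A1, a phloem lectin, averaged 114 ± 2.14 FPKM, SWEET11, a sucrose exporter, 80.2 ± 3.22 FPKM and SUC2, the sucrose loader of companion cells, 48.4 ± 2.54 FPKM (SD, n = 3 each). All 12 markers of the stomatal lineage and guard cells were above 1 FPKM, from MUTE at 1.09 FPKM to FAMA at 16.1 FPKM.

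The 10 xylem, 7 trichome and 12 stomatal markers had medians of 3.77, 4.25 and 3.47 FPKM, under the 5.09 FPKM of all genes, while the epidermis and phloem medians were 74.1 and 15.2 FPKM. XCP2, a protease of dying vessel cells, averaged 28.8 ± 1.60 FPKM and the secondary-wall cellulose synthases CESA4, CESA7 and CESA8 averaged 5.17, 3.98 and 3.45 FPKM. The trichome regulators ran from GL3 at 0.848 FPKM to TTG1 at 25.9 FPKM. Cell division genes were detected, with KN, the syntaxin of the forming cell plate, at 31.0 FPKM and the cyclin CYCB1;1 at 3.66 FPKM. Of the shoot meristem markers, CLV1, a receptor kinase, averaged 17.0 ± 0.547 FPKM and STM, which keeps the meristem undifferentiated, 8.33 ± 1.12 FPKM (SD, n = 3 each). CLV3, the peptide of the stem cells, was at 0.0613 FPKM in replicate 2 and listed at 0 in replicates 1 and 3, and WUS was listed at 0 in all 3.

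Markers of tissues outside the label were low, with 1 exception. Of 10 root genes 6 had a row; COBL9 and IRT1 were listed at 0 in all libraries, and NRT2.1, WER and PIN2 averaged 0.237, 0.214 and 0.00656 FPKM. PYK10, the β-glucosidase of endoplasmic reticulum bodies that is abundant in roots and seedlings, had 63.3, 65.5 and 63.8 FPKM. Of 10 seed and embryo genes 6 had a row, and none exceeded the 0.516 FPKM of FUS3, an embryo regulator.

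Defence and stress genes showed a moderate background. PR2, PR5 and PR1, secreted proteins of the salicylic acid response, had 82.8, 84.5 and 82.0 FPKM, 47.4, 44.0 and 44.4 FPKM, and 25.7, 23.1 and 23.8 FPKM in replicates 1, 2 and 3. ICS1, which makes most of the plant's salicylic acid on infection, averaged 13.2 ± 0.900 FPKM and FMO1 0.871 ± 0.237 FPKM. In the jasmonate list, LOX2, a plastid lipoxygenase, was the highest at 294 ± 6.54 FPKM and THI2.1 the lowest at 1.34 ± 0.0667 FPKM (SD, n = 3 each). Cold and heat regulators were low, with CBF2, CBF3 and CBF1 at 1.22, 0.312 and 0.246 FPKM and HSFA2 at 0.868 FPKM, while ERD10, a dehydrin, averaged 121 ± 3.60 FPKM (SD, n = 3). TCH3, a calmodulin-like gene induced by touch, averaged 113 FPKM. Of 8 leaf senescence genes 7 were above 1 FPKM, with a median of 14.4 FPKM. NYC1 and PAO, enzymes of chlorophyll breakdown, averaged 46.7 and 35.7 FPKM, while the senescence protease SAG12 was at 0.0721 FPKM in replicate 1 and listed at 0 in replicates 2 and 3.

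All 13 listed genes of the m6A machinery were detected, between 2.14 and 83.5 FPKM. The readers ECT2, ECT3, ECT1 and ECT4, YTH-domain proteins that bind m6A, averaged 83.5 ± 12.4, 47.2 ± 0.306, 13.1 ± 0.185 and 7.49 ± 0.224 FPKM (SD, n = 3 each). ECT2 was at 69.2 FPKM in replicate 1, against 91.5 and 89.8 FPKM in replicates 2 and 3. The demethylases ALKBH10B and ALKBH9B averaged 35.4 and 5.37 FPKM. The writer complex lay in a narrow band, with FIP37 at 11.8, MTA at 11.4, HAKAI at 10.5, MTB at 10.4 and VIR at 7.70 FPKM. CPSF30, whose long form carries a YTH domain, averaged 7.25 FPKM. FIO1 (AT2G21070; chromosome 2, 9040852 to 9043626), the Arabidopsis METTL16 homologue, was the lowest of the list with 1.98, 2.13 and 2.31 FPKM.

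Of 296 genes whose description in the authors' table names a transcription factor, 221 reached 1 FPKM, their median was 6.21 FPKM and together they held 0.433% of the pool. The highest by that wording were not sequence-specific regulators. BTF3, known as a subunit of the nascent polypeptide-associated complex, averaged 229 ± 3.09 FPKM, and AT1G06760 and AT2G30620, which encode linker histones H1, averaged 104 ± 2.42 and 85.1 ± 3.68 FPKM (SD, n = 3 each). SVP was the fourth highest by this wording. CHE, a TCP factor of the clock, averaged 40.1 ± 0.284 FPKM, and YAB1, a regulator of the lower leaf side, 37.2 ± 2.14 FPKM (SD, n = 3 each).

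By the KEGG pathways in the authors' table, described after their values were seen, antenna proteins had the highest median, 2035 FPKM over 25 genes, followed by glucosinolate biosynthesis with 122 FPKM over 25 genes and the ribosome with 58.7 FPKM over 413 genes. Restricted to the 268 nuclear genes of that pathway described as ribosomal proteins, the median was 113 FPKM and the highest gene, AT5G20290, had 746, 718 and 702 FPKM. Low medians were found for diterpenoid biosynthesis, 0.526 FPKM over 35 genes, for cutin, suberin and wax, 0.520 FPKM over 66 genes, for stilbenoid, diarylheptanoid and gingerol biosynthesis, 0.493 FPKM over 25 genes, and for sesquiterpenoid and triterpenoid biosynthesis, 0.389 FPKM over 38 genes. The lowest pathway with at least 10 genes was limonene and pinene degradation, 0.00576 FPKM over 13 genes. The KEGG orthology groups with 2 genes put a median of 74.8% of their summed FPKM on the higher gene. In the 42 ribosome groups of 2 genes this median was 91.8%, against 73.7% in the other 425. In groups of 3 genes the order was the other way, with 57.8% in 44 ribosome groups and 62.6% in the other 241. Unlike the 268 genes above, these groups were not restricted to nuclear genes, and what organelle genes add to them was not tested.

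Levels also differed by kind of locus. Of 23307 protein-coding genes 74.4% reached 1 FPKM, against 10.8% of 749 loci described as transposable element genes and 17.8% of 400 pseudogenes. The highest transposable element locus, AT2G10410.1, had 59.6, 60.0 and 59.0 FPKM. The median of 203 lncRNA genes was 1.07 FPKM, and the highest non-coding locus other than rRNA and organelle genes was AT4G13495 with 194, 201 and 189 FPKM. The plastid and mitochondrial genomes held little of the pool, 0.155 ± 0.0478% and 0.0120 ± 0.000845% (SD, n = 3 each). Among genes at 1 FPKM or more, level and gene length had Spearman's rho of 0.0158 over 17868 genes, and over all genes above 0 it was 0.214. The points are genes of the same libraries, and transcript length enters FPKM itself.

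The replicates differed little for genes of moderate or high level. Among genes at 1 FPKM or more, the median CV was 4.64%. It was 6.91% from 1 to under 10 FPKM, 3.45% from 10 to under 100 FPKM, 2.41% from 100 to under 1000 FPKM and 2.23% at 1000 FPKM or more, and 52.4% for genes above 0 but under 1 FPKM. The genes with the smallest CV at 20 FPKM or more included AT4G25900 with 21.5 FPKM in each library and LCB2, a subunit of serine palmitoyltransferase, with 20.5, 20.5 and 20.6 FPKM. CHLH, with a CV of 0.0922%, was in that set of 10; these genes were chosen by their small CV. The 15 listed genes often used as references had a median CV of 3.23%, and the largest CV among the 15 was 7.49%. ACT2, an actin, averaged 206 ± 3.29 FPKM, UBQ10, a polyubiquitin, 35.6 ± 0.557 FPKM and PP2AA3, a phosphatase subunit, 25.7 ± 0.911 FPKM (SD, n = 3 each). Genes of similar kinds outside the list were not all steady. The translation factor genes EIF4A1 and AT1G07940 had CVs of 59.9% and 57.8%, and the ubiquitin gene UBQ11 61.0%. These were picked for their large CV. AT1G07940 carries the same description as the listed reference EF1A, and UBQ11, like UBQ10, is a ubiquitin gene. The division of fragments between such related genes is uncertain. Its part in these CVs and in the level of UBQ10 was not tested.

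A small number of genes departed from this. Of 12858 genes at 5 FPKM or more, 69 (0.537%) had an SD of log2(FPKM + 1) above 0.5, a limit chosen after the values were seen. Each was labelled by the larger gap between its sorted log2 values, so an odd library was always assigned, also where all libraries differed. By this label the odd library lay below the others in 37 genes and above in 32. It was replicate 1 in 19, replicate 2 in 24 and replicate 3 in 26. AT4G21620, described as a glycine-rich protein, had the largest SD, with 60.9, 0.254 and 54.1 FPKM in replicates 1, 2 and 3. ATCTH, a zinc finger gene, had 44.2, 0.2004 and 0.0229 FPKM, and GT72B1, a UDP-glycosyltransferase, had 2.198, 80.3 and 79.5 FPKM. AT5G28500 had 9.92, 232 and 10.8 FPKM. The polyubiquitin UBQ14 had 133, 130 and 14.3 FPKM, and the polygalacturonase PG2 73.8, 72.2 and 7.82 FPKM. UBQ14 repeats ubiquitin units found in other genes, so its share of fragments is uncertain.

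**Figure D4:**
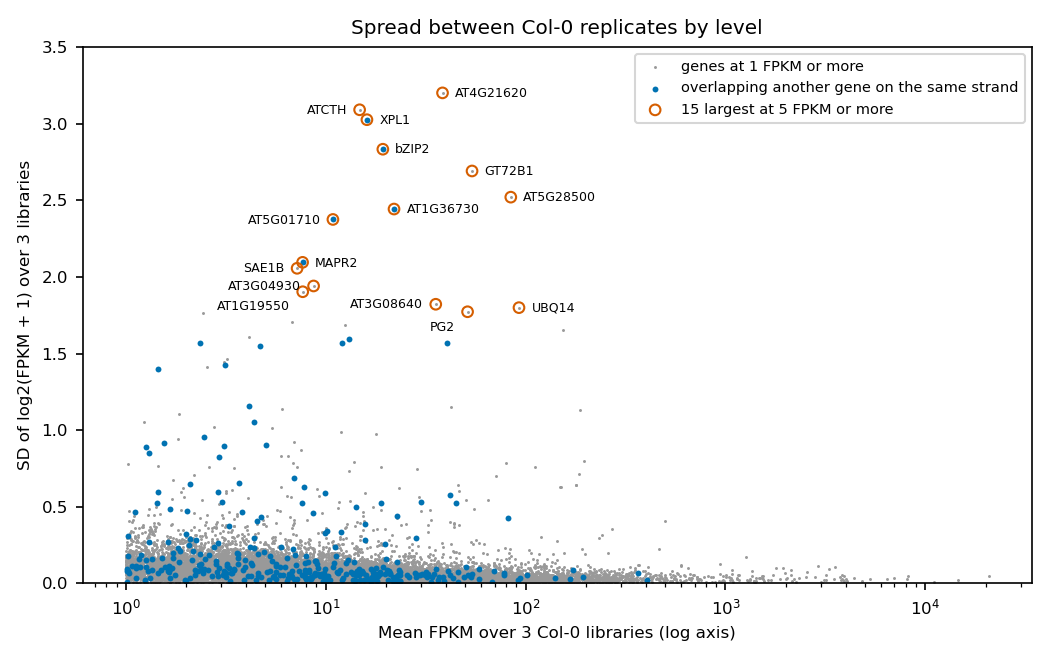
SD of log2(FPKM + 1) over the 3 Col-0 libraries against mean FPKM on a log axis, for genes at 1 FPKM or more; blue points overlap another gene on the same strand, and rings with names mark the 15 largest SDs at 5 FPKM or more. Most genes lie near the bottom, with a median SD of 0.0595, and the 15 named genes lie between 1.77 and 3.20.

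Some of these 69 genes overlap another gene of the table on the same strand. The SD was above 0.5 in 17 of the 208 genes with such an overlap (8.17%), against 52 of the 12650 genes without one (0.411%), a difference that was not tested. Both entries of a pair can be among the 17, as with XPL1 and AT3G17998 or bZIP2 and AT2G18162. The entries are therefore not independent. In the 5 overlapping genes among the 15 largest, the partner moved the other way, and the sum of both varied less. Another pair did not: AT1G64142 had 18.6, 18.9 and 1.91 FPKM and AT1G64140, at the same interval, 16.9, 17.7 and 1.77 FPKM, both low in replicate 3. XPL1, a phosphoethanolamine methyltransferase (AT3G18000; chromosome 3, 6154363 to 6157552), had 0.390, 0.199 and 47.7 FPKM in replicates 1, 2 and 3. Its partner AT3G17998, an upstream open reading frame entry from 6154363 to 6157551, had 56.9, 56.6 and 7.76 FPKM, and the sum had a CV of 1.68%. The transcription factor bZIP2 (AT2G18160) had 0, 28.0 and 30.0 FPKM, and its upstream open reading frame AT2G18162 at the same interval, chromosome 2, 7898012 to 7899242, had 63.2, 30.2 and 32.0 FPKM, with a CV of 4.26% for the sum. For AT1G36730, AT5G01710 and MAPR2 the sums with their partners had CVs of 2.00%, 4.98% and 4.47%.

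Neighbouring copies on chromosome 5 held the other 3 genes listed at 0 in a library and at 5 FPKM or more in another. SAE1B (AT5G50680; 20618743 to 20620962), which encodes a subunit of the SUMO-activating enzyme, had 10.6, 0 and 11.0 FPKM, and its copy AT5G50580 (20585349 to 20587620) had 9.93, 14.1 and 10.4 FPKM. SPL13B (AT5G50670; 20615704 to 20617901), a squamosa promoter-binding factor, had 7.32, 0 and 0 FPKM, and SPL13A (AT5G50570; 20582083 to 20584559) had 5.87, 5.33 and 8.19 FPKM. AT5G50650 had 4.303, 0 and 5.02 FPKM and AT5G50550 had 4.24, 5.88 and 4.99 FPKM. In these copies a 0 stood beside a measured partner, and the division of fragments between copies is uncertain. Of the 349 listed genes at 5 FPKM or more, 5 had a CV above 20%, namely OPR3, APL, EDS1, CRY2 and MAF3. OPR3, a jasmonate synthesis enzyme, had 32.2, 11.9 and 13.0 FPKM, and EDS1, a hub of immune signalling, had 10.8, 20.5 and 20.2 FPKM. CRY2, a blue-light receptor, had 23.3, 38.4 and 36.3 FPKM, and APL, a phloem regulator, had 8.11, 7.51 and 2.25 FPKM.

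Replicate 2 stood apart in genes annotated as ribosomal RNA and in the highest plastid loci. All 4 genes annotated as rRNA were highest in replicate 2, led by AT3G41768 with 425, 669 and 397 FPKM in replicates 1, 2 and 3. The plastid genome held 0.135%, 0.209% and 0.120% of FPKM in the 3 libraries. The 4 highest plastid loci, ATCG01210, ATCG00920, ATCG01180 and ATCG00950, carried no description or kind of gene. Whether any of them is an rRNA gene was therefore not settled here. Their values came in near-equal pairs, so the 4 need not be independent. ATCG01210 and ATCG00920 had 140, 279 and 120 FPKM and 140, 277 and 119 FPKM in replicates 1, 2 and 3. ATCG01180 and ATCG00950 had 123, 230 and 99.2 FPKM and 121, 228 and 98.3 FPKM. The 4 loci summed to 524, 1014 and 437 FPKM in replicates 1, 2 and 3, and the other 127 loci to 447, 481 and 424 FPKM. Most of the plastid difference of replicate 2 thus lay in those 4 loci. Of 69 plastid genes at 1 FPKM or more, 42 (60.9%) were highest in replicate 2, against 32.7% of all genes at that level. For protein-coding genes the ratio of replicate 2 to the mean of the others had a median of 0.998.

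Presence in the authors' deposited table of m6A peaks was set against level. That table has 6437 rows of a comparison of both genotypes, so a gene with a row need not have its peak in Col-0. It named 6003 genes, of which 5986 (23.4% of genes in the expression table) had a level. The share with a row was 2.205% of genes listed at 0, 8.64% above 0 to under 1 FPKM, 26.1% from 1 to under 10 FPKM, 33.7% from 10 to under 100 FPKM, 41.0% from 100 to under 1000 FPKM and 28.8% of the 80 genes at 1000 FPKM or more. Among genes at 1 FPKM or more split by length into 4 equal parts, in the shortest, up to 1548 bp, the shares from 1 to under 10, 10 to under 100 and 100 to under 1000 FPKM were 15.9%, 28.5% and 37.2%. In the longest, from 3173 bp, they were 34.0%, 35.3% and 51.8%. Peak detection needs fragments, and its part in these shares was not tested.

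**Figure D5:**
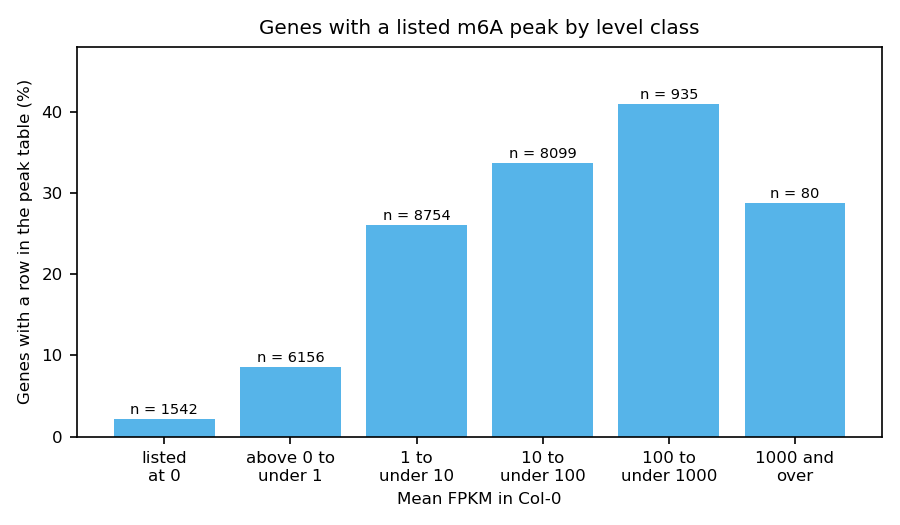
Percent of genes with at least 1 row in the deposited m6A peak table, by class of mean FPKM in Col-0; the number above each bar is the number of genes in the class. The share grows to 41.0% from 100 to under 1000 FPKM and is 28.8% at 1000 FPKM or more.

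Median level differed between genes grouped by the position of their rows. A gene can be in more than 1 of these groups, the rows compare both genotypes, and gene length was not held equal. Genes with a row in the 3′ UTR had a median of 12.1 FPKM over 4896 genes, genes with a row in the 5′ UTR 18.3 FPKM over 474 genes and genes with a row in another exon 3.40 FPKM over 790 genes. Over all genes at 1 FPKM or more, 30.3% had a row. Of the photorespiration list 10 of 15 genes had a row, among them SHM1, GLDP1 and GGT1, and of the chlorophyll synthesis list 11 of 18, among them CHLH and CAO. Of the 20 antenna genes 5 had one (25%) and of the 20 clock genes 4 (20%), both near or under the share of all genes, 23.4%. RBCS1A and LHCB1.3 had none. Of the glucosinolate list 2 of 17 had a row, SUR1 and TGG2. The clock genes with a row were CCA1, LHY, PRR7 and ELF3. Of 13 floral identity genes 9 had a row, SEP4 at 8.38 FPKM and others under 1 FPKM such as AG, AP3 and PI. Among all genes above 0 to under 1 FPKM the share was 8.64%. STK, among the 9, was listed at 0 in every library. Whether the rows of these floral genes are peaks in Col-0 was not tested. The lists named here are not all of the gene lists. Of the others, carbonic anhydrase had 4 of 6 and redox enzymes 9 of 18, but plasma membrane aquaporins 1 of 13 and leaf senescence 0 of 8.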

How the data were processed

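RNA-seq (input) libraries of 3 Col-0 samples were described from the FPKM values deposited by the authors, 1 column per replicate, matched by genotype and replicate number. Per the submitters' processing notes the build was TAIR10 and the tools were HISAT2, StringTie, cutadapt, fastp, edgeR and HOMER, without versions or roles; whether counting used strand was not given in the sources used here, although the labels describe strand-marked libraries of 150 bp pairs. From the authors' deposited peak table the gene, the annotation and the presence of a row were used and no other value. For symbols, 24402 of 25566 identifiers (95.4%) matched RefSeq's genes of assembly TAIR10.1. FPKM keeps no depth, so no counting interval is given. Relative depth was read from the commonest ratio of values under 0.1 FPKM. It was tried on simulated Poisson counts with a higher limit, so the setting used on the data was not itself tested.

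Level classes used the mean FPKM over replicates. Spread was the SD of log2(FPKM + 1), with a pseudocount of 1, and the CV. One group allows no test, so no p-value was made, and how many plants each biological replicate pooled is not stated. The 32 gene lists and the group itself were chosen with earlier results of these data known. Genes named were the 25 highest, the 15 with the largest SD at 5 FPKM or more, those with the 10 smallest CVs at 20 FPKM or more, the 15 highest described as transcription factors, and list members (the highest and lowest 4 of each list, and all members of the families and of the reference, clock, flowering, floral identity and m6A lists). Other genes named, the limit on SD, pathway and copy summaries and the contrast of replicate 2 were chosen after values were seen. Promoter sequences and GC content were not used here. Alternatives were leaving out each replicate, TPM scaling, other filters, a pseudocount of 0.1 and median centring. The tools were matplotlib 3.10.9, pandas 2.3.3, Python 3.11.15, SciPy 1.17.1 and NumPy 2.4.6.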

Additional observations from a re-analysis of the deposited data

How the results depend on the processing

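Over 19 summary values and 86 alternatives, 72 values moved by less than the spread between replicates or stayed within 1.5 times a count, 14 moved and none changed sign. Part of the 72 was fixed in advance. Shares of summed FPKM and of family sums are means over libraries, so leaving out a replicate cannot move them beyond the SD. TPM scaling leaves a list's share of summed FPKM unchanged. Those alternatives therefore say nothing about how firm the shares are. No paired analysis was possible because the values come from a single group and no test. The median CV was 4.64%. It lay between 3.60% and 3.91% when a replicate was left out, since a CV from fewer libraries has a lower median by construction. With no filter on low values it was 6.47%, and at 5 FPKM or more 3.76%. The median SD of log2, 0.0595, lay between 0.0457 and 0.0494 when a replicate was left out, since an SD from fewer libraries has a lower median by construction, and was 0.0662 with a pseudocount of 0.1. The 69 genes with an SD above 0.5 became 112 at 1 FPKM or more and 132 with no filter, since more genes entered. Spearman's rho of level and gene length was 0.0158 and became 0.214 over all genes above 0. The share of genes with an m6A row, 30.3% at 1 FPKM or more, stayed at 30.3% when any replicate was left out and was 24.8% over all genes above 0. Promoter motifs and GC content with their alternatives were not run. The unknown depth limits values under 1 FPKM, where the median CV was 52.4%.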
